A study of Mus musculus with 8 samples.

Results

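Metallothioneins are small cysteine-rich proteins that bind zinc, copper and cadmium, and together with zinc transporters they set how much free zinc a cell holds. The genes described here are the metallothioneins Mt1, Mt2 and Mt3, the metal-sensing transcription factor Mtf1, the zinc exporter Slc30a1 and the zinc importers Slc39a8, Slc39a14 and Slc39a4. They were chosen by name as a set of metallothionein and zinc handling genes, with earlier results of these data known. Of the 8 genes, 7 are among the 17127 genes of the expression table. The remaining one, Mt2, was not analysed here. Values are CPM, read counts scaled so that each library sums to 1000000, and all 7 genes passed a minimum of 2.2 CPM in at least 2 libraries of a group, as did 17126 genes in all.

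RNA-seq was performed on whole testes of 4-month-old mice, from 4 wild-type males and from 3 Iqch-/- males numbered 1, 2 and 4; mutant 3 was not analysed here. The Iqch mutants were homozygous for a short frameshift deletion near the end of Iqch, introduced into B6CBAF1 zygotes with CRISPR-Cas9 and kept as 2 lines, and the labels do not give the line of each mutant, although the study draws its RNA-seq coverage of the mutants as that of the Iqchmu7 line. Wild-type mice served as controls. The labels name no treatment, and metal levels are not part of these data.

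Transcripts of the mutated gene itself stood at 67.3 ± 2.25 CPM (SD, n = 3) in the mutants against 208 ± 11.3 CPM (n = 4) in wild-type testes, a log2 fold change of −1.63 ± 0.05 (SE; limma, Benjamini-Hochberg FDR 1.9e-10). Reads behind a library numbered between 32064384 and 37551057, so 1 read corresponded to between 0.0266 and 0.0312 CPM. The transcript mixture also differed between the groups. Summed CPM over 8 spermatid markers lay between 20471 and 21618 in wild type and between 13001 and 14963 in the mutants, and all 8 fell. Over all tested genes 36.3% rose and 14.2% fell. Over the markers of other cells, 6 of 7 Leydig genes rose (summed CPM 1033 to 1245 in wild type and 4343 to 4502 in the mutants), as did 7 of 7 Sertoli genes (586 to 615 and 1141 to 1241) and 8 of 8 macrophage genes (92.4 to 103 and 285 to 325). With median-of-ratios size factors in place of the deposited scaling, 5 of 7 Sertoli genes were called higher and the Leydig, macrophage and spermatid counts were as given. Of all 17126 genes, 4627 were then called higher and 4294 lower. By flow cytometry of older mice, the study reports fewer germ cells of all types in the mutants. Among proportions, it reports a significant reduction for haploid cells only. Fewer cells of a type and less RNA per cell cannot be told apart in RNA of whole testis, and the part of the marker shifts in the results that follow was not tested.

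As background, zinc that enters the cytosol is bound by metallothioneins or carried away by transporters. ZIP proteins, encoded by the Slc39 genes, bring zinc into the cytosol, and ZnT proteins, encoded by the Slc30 genes, carry it out of the cell or into organelles. The zinc-finger factor MTF1 senses free zinc and, when zinc or cadmium rises, switches on Mt1, Mt2 and Slc30a1 through short metal response elements in their promoters. In the testis zinc is taken up into developing sperm, where it stabilises the condensed chromatin, and ZIP8, the product of Slc39a8, is a known route of cadmium into this organ.

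Promoter sequences are shown for Mt1 and Slc30a1, since both are classical targets of MTF1 and the ratio of their transcripts is given further on. Each runs from 250 bases before to 50 bases after the start given by RefSeq (GRCm38.p6), and each was matched exactly to the + strand of GRCm39, Mt1 at chr8:94905467-94905766 and Slc30a1 at chr1:191638643-191638942. Capitals mark the core of the metal response element, searched on both strands as TGCACNC or TGCGCNC; places in the Slc30a1 window lie on the minus strand and so appear in reverse complement.
Mt1: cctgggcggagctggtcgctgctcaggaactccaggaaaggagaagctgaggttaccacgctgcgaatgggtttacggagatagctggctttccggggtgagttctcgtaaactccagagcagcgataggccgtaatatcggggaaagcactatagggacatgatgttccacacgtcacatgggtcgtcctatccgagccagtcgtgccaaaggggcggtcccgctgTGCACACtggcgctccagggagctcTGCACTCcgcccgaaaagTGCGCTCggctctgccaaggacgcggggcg
Slc30a1: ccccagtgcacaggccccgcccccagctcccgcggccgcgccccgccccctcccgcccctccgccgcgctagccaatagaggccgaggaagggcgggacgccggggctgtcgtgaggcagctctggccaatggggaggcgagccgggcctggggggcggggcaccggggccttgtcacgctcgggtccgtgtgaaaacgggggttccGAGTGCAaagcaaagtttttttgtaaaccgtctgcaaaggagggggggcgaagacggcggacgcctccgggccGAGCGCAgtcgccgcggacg

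The Mt1 window held 3 places with the core, the first bases of which lay at −23, 2 and 20 relative to the start. The Slc30a1 window held 2 places, at −43 and 30. RefSeq windows were found for 6 of the 8 genes, 7 windows in all. The Mt2 window held 4 places and the Mt3 window 1, the Mtf1 window held 0, and the 2 windows of Slc39a8 held 0 and 1. Among 32851 promoter windows of the same length, 25.7% held at least 1 place, 6.14% at least 2, 1.31% at least 3 and 0.295% at least 4. A match of these letters is a description of the sequence and not a measured binding site. Start sites differ between annotations. In windows of the same length around the starts in GENCODE M39, Mt1 held 3 or 5 places, Mt2 between 0 and 4 and Slc30a1 between 1 and 3, depending on the transcript. The Mt1 start with 5 places lies 152 bases after the RefSeq start, so the positions given above hold for the RefSeq start only.

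Mt1 was by far the most abundant of the 7 transcripts. Divided by the length of the canonical transcript, its level was 397 ± 20.1 CPM per kb in wild type (SD, n = 4), followed by Mtf1 at 18.5 ± 1.14, Slc39a8 at 10.3 ± 0.436 and Slc30a1 at 8.03 ± 0.207 CPM per kb. The lowest levels were those of Mt3 at 3.83 ± 0.676, Slc39a4 at 2.65 ± 0.314 and Slc39a14 at 2.11 ± 0.159 CPM per kb. No neighbours in this order had overlapping ranges in wild type. In the mutants the first 4 places were unchanged in order, with Mt1 at 378 ± 23.3, Mtf1 at 16.8 ± 0.754, Slc39a8 at 11.9 ± 0.484 and Slc30a1 at 10.9 ± 0.378 CPM per kb (SD, n = 3). Slc39a14, at 3.57 ± 0.345 CPM per kb, came before Mt3 at 2.43 ± 1.37 and Slc39a4 at 1.71 ± 0.0339, and here the range of Mt3 overlapped those of both neighbours. The values of each gene by library are drawn in the plot of CPM in the 7 libraries.

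**Figure D1:**
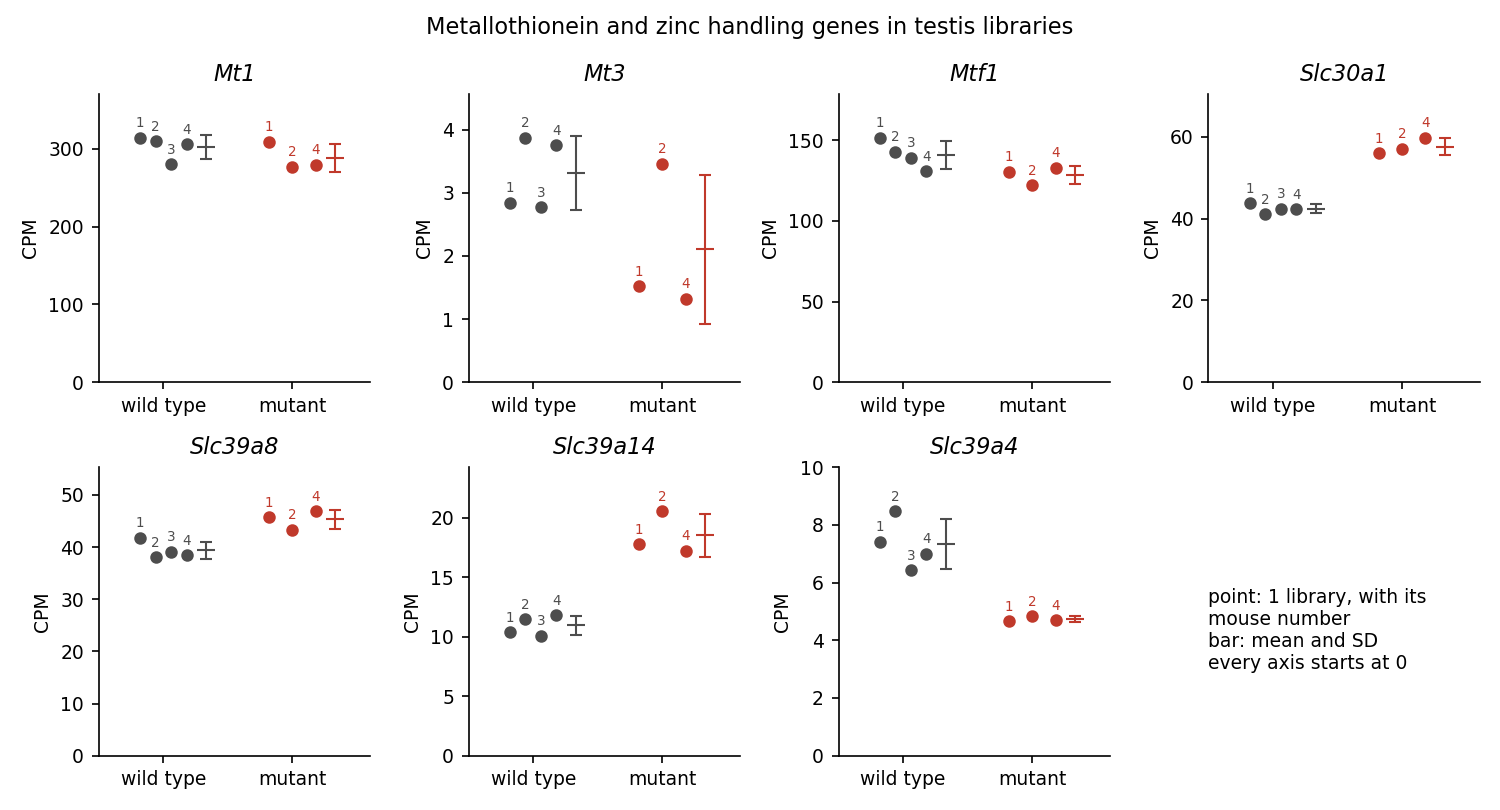
CPM (vertical axes, each starting at 0) of the 7 genes in the wild-type (grey) and Iqch mutant (red) libraries; points are libraries with their mouse numbers, and the bars beside them give the mean and SD. Slc30a1, Slc39a8 and Slc39a14 lie higher in all 3 mutants than in any wild-type library and Slc39a4 lies lower, whereas the groups overlap for Mt1, Mt3 and Mtf1.

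To examine which of these genes differed between genotypes, each was tested with limma in a fit to all 17126 genes, and genes were called at an FDR below 0.01. Of the 7 genes, 4 were called: Slc30a1, Slc39a8 and Slc39a14 rose and Slc39a4 fell. Over all genes tested, 50.4% were called, 36.3% higher and 14.2% lower, so the share among the 7, 57.1%, lay near the background. The same 4 genes were those whose groups did not overlap, against 62.3% of all genes (42.8% higher in every mutant and 19.5% lower). The median log2 fold change was −0.07 for the 7 genes and 0.12 for all genes. The scaling of the libraries mattered here. With median-of-ratios size factors in place of the deposited scaling, the median of all genes moved to −0.01 and the share of calls that were higher went from 71.9% to 51.9%. Of all 17126 genes 52.1% were then called, 4627 higher and 4294 lower. Among the 7 genes the calls became 2 higher (Slc30a1 and Slc39a14), 3 lower (Mt1, Mtf1 and Slc39a4) and 2 without a call.

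**Figure D2:**
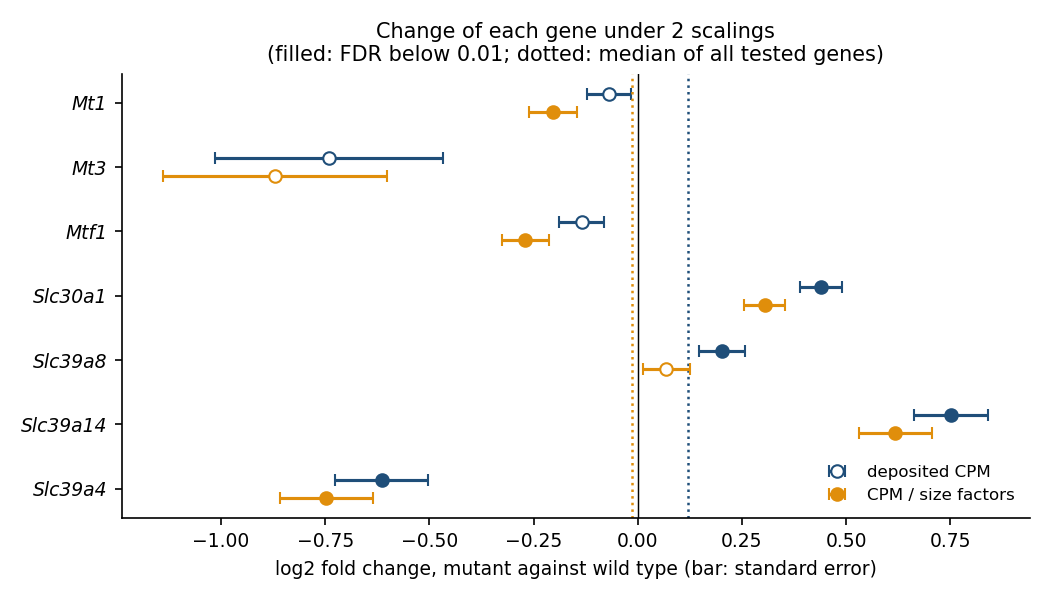
Log2 fold change of each gene, mutant against wild type (horizontal axis, bars give the standard error), with the deposited CPM (blue) and with CPM divided by size factors (orange); filled points have an FDR below 0.01 and dotted lines mark the median of all tested genes. Slc30a1 and Slc39a14 lie above 0 and Slc39a4 below 0 with filled points in both, Slc39a8 is filled only with the deposited CPM, Mt1 and Mtf1 only with size factors, and Mt3 in neither.

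Mt1 (ENSMUSG00000031765, chr8:94905710-94906955, + strand, GRCm39) encodes the ubiquitous metallothionein 1, which buffers zinc and binds cadmium. It read 314, 309, 280 and 306 CPM in wild type 1 to 4 and 309, 277 and 279 CPM in mutants 1, 2 and 4. The groups overlapped, since mutant 1 lay among the wild-type values and wild type 3 lay beside the other two mutants. Means were 302 ± 15.3 (n = 4) and 288 ± 17.8 (n = 3) CPM, and the log2 fold change was −0.07 ± 0.05 (limma FDR 0.263), with a 95% confidence interval from −0.18 to 0.04. With size factors it was −0.20 (FDR 0.00723) and with TMM factors −0.22 (FDR 0.00429), and both passed the threshold. Between 8882 and 11477 reads of each library fell on Mt1, so read number did not limit this comparison.

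By the root mean square difference of centred log2 profiles over the 7 libraries, the transcripts most like Mt1 were Atp6v1f at 0.02, Fbxw5 at 0.02, Dgcr6 at 0.03, Fbxl9 at 0.03 and Limk2 at 0.03. Atp6v1f encodes a subunit of the vacuolar proton pump, Fbxw5 and Fbxl9 encode F-box proteins and Limk2 a kinase that acts on cofilin. Their log2 fold changes lay between −0.09 and −0.04 and none was called with the deposited scaling, whereas with size factors and with TMM factors all but Limk2 were called lower, as Mt1 was. These genes were picked for closeness to Mt1 in the same libraries, so changes and calls near those of Mt1 follow from that choice.

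Mt3 (ENSMUSG00000031760, chr8:94879220-94881088, + strand) encodes the metallothionein best known from brain, and in testis it was sparse, with 43 to 141 reads per library. It read 2.84, 3.87, 2.77 and 3.75 CPM in wild type and 1.52, 3.46 and 1.32 CPM in mutants 1, 2 and 4. Mutants 1 and 4 lay below all wild-type libraries and mutant 2 lay within their range. The log2 fold change was −0.74 ± 0.27 (limma FDR 0.0311), which did not pass the threshold. Without mutant 2 it was −1.15 (FDR 0.000441), so this single library decided the call.

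Mt2, which encodes the second ubiquitous metallothionein and is the neighbour of Mt1 at chr8:94898819-94900207, was not analysed here, and neither was Mt4. In the annotation, Mt2 shares 1222 bases with Gm45774, an lncRNA gene on the opposite strand.

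Mtf1 (ENSMUSG00000028890, chr4:124695897-124743593, + strand), the gene of the zinc sensor, read 152, 143, 139 and 131 CPM in wild type and 130, 122 and 133 CPM in the mutants. Wild type 4 lay between mutants 1 and 4, so the groups overlapped at that point alone. Means were 141 ± 8.67 and 128 ± 5.76 CPM, with a log2 fold change of −0.13 ± 0.05 (limma FDR 0.0439). With size factors the value was −0.27 (FDR 0.00107) and with TMM factors −0.28 (FDR 7.2e-04), and both passed. A stretch of 761 bases of the Mtf1 gene is shared with 1110065P20Rik on the opposite strand, which read 55.0 CPM in wild type and 51.0 CPM in the mutants; the strand setting of the counting is not given in the sources used here.

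Slc30a1 (ENSMUSG00000037434, chr1:191638808-191645361, + strand) encodes ZnT1, the exporter that carries zinc across the plasma membrane. It read 43.8, 41.1, 42.5 and 42.3 CPM in wild type and 55.9, 57.1 and 59.8 CPM in the mutants. The lowest mutant lay well above the highest wild-type library. It rose from 42.4 ± 1.09 to 57.6 ± 2.00 CPM, 1.36-fold, with a log2 fold change of 0.44 ± 0.05 (limma FDR 8.0e-06). The call held in 14 of 14 alternatives, between 0.29 and 0.46. The gene shares 832 bases with the lncRNA gene 1700034H15Rik on the opposite strand, whose level was 34.97 CPM in wild type and 33.6 CPM in the mutants.

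Since MTF1 acts on both Mt1 and Slc30a1, the 2 transcripts were compared within each library, where the scaling cancels. The ratio of Slc30a1 to Mt1 CPM was 0.139, 0.133, 0.152 and 0.138 in wild type and 0.181, 0.206 and 0.214 in the mutants. All mutant ratios were above all wild-type ratios. The mean ratio was 0.141 ± 0.00786 in wild type and 0.200 ± 0.0173 in the mutants, a difference of 0.51 on the log2 scale. This ratio and that of Slc39a14 to Slc39a8 were chosen after their values were seen, so both are given as descriptions without p-values.

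**Figure D3:**
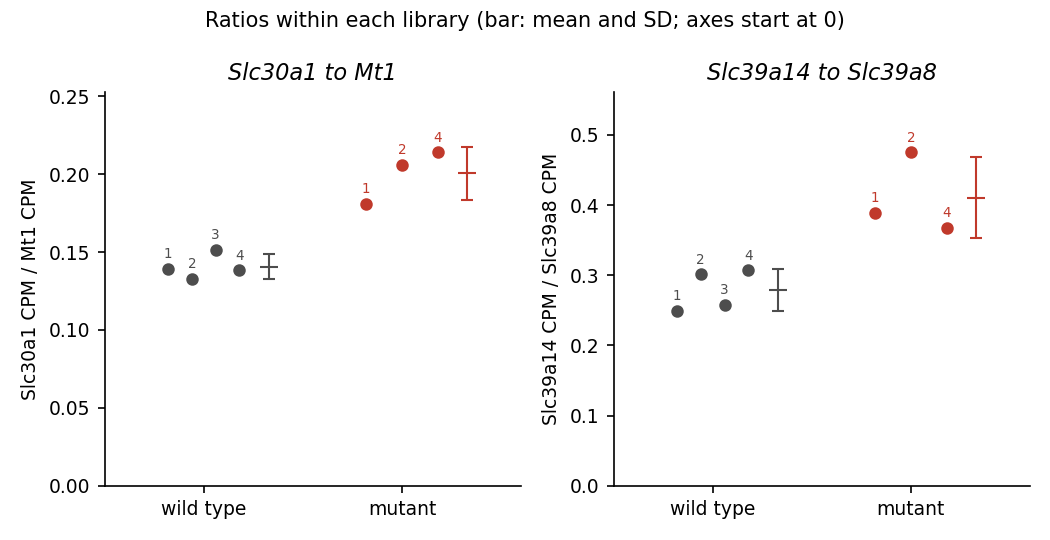
Ratio of CPM within each library (vertical axes, starting at 0) for Slc30a1 to Mt1 and for Slc39a14 to Slc39a8, in wild-type (grey) and Iqch mutant (red) libraries; points are libraries with mouse numbers and bars give the mean and SD. In both, every mutant lies above every wild-type library: from 0.181 against at most 0.152 for the first ratio, and from 0.367 against at most 0.307 for the second.

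Among the importers, Slc39a14 (ENSMUSG00000022094, chr14:70540678-70588914, − strand) encodes ZIP14, a plasma membrane carrier of zinc, manganese and iron. It read 10.4, 11.5, 10.1 and 11.8 CPM in wild type and 17.8, 20.6 and 17.2 CPM in the mutants. The groups were far apart compared with the spread within each. It rose from 11.0 ± 0.826 to 18.5 ± 1.79 CPM, 1.69-fold, and the log2 fold change of 0.75 ± 0.09 (limma FDR 1.2e-05) was the largest rise among the 7 genes. The call held in 14 of 14 alternatives, between 0.60 and 0.80.

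Slc39a8 (ENSMUSG00000053897, chr3:135531040-135594333, + strand) encodes ZIP8, the closest relative of ZIP14, which carries zinc, manganese and cadmium. It read 41.8, 38.1, 39.1 and 38.5 CPM in wild type and 45.8, 43.3 and 46.9 CPM in the mutants. All mutants lay above all wild-type libraries, but mutant 2 lay close to wild type 1. It rose from 39.4 ± 1.67 to 45.3 ± 1.85 CPM, 1.15-fold, with a log2 fold change of 0.20 ± 0.06 (limma FDR 0.00641). This call held in 6 of 14 alternatives. With size factors the value was 0.07 (FDR 0.306), and it was between 0.18 and 0.20 (FDR 0.0129 to 0.0369) when wild type 2, 3 or 4 or mutant 1 or 4 was left out. The lncRNA gene 4933401H06Rik on the opposite strand shares 11889 bases with it and read 21.5 CPM in wild type and 30.0 CPM in the mutants.

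The ratio of Slc39a14 to Slc39a8 did not depend on the scaling. It was 0.249, 0.301, 0.258 and 0.307 in wild type and 0.389, 0.476 and 0.367 in the mutants, so every mutant lay above every wild-type library. The means were 0.279 ± 0.0296 and 0.411 ± 0.0572, a difference of 0.55 on the log2 scale.

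Slc39a4 (ENSMUSG00000063354, chr15:76496580-76504172, − strand) encodes ZIP4, the carrier for dietary zinc in the gut, and its transcript was at a low level in testis, with 153 to 291 reads per library. It read 7.42, 8.48, 6.42 and 7.004 CPM in wild type and 4.65, 4.83 and 4.70 CPM in the mutants. The 3 mutants were nearly equal and all below the lowest wild-type library. It fell from 7.33 ± 0.867 to 4.73 ± 0.0935 CPM, 0.645-fold, with a log2 fold change of −0.61 ± 0.11 (limma FDR 4.1e-04). The call held in 14 of 14 alternatives, between −0.76 and −0.53. The lncRNA genes Gm62519 and Gm62526 overlap Slc39a4 on the opposite strand and were not analysed here.

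The importers and the exporter were set beside the rest of their families. Of 14 ZIP genes 12 were tested, of which 5 rose, 1 fell and 6 did not pass, and the single fall was that of Slc39a4. Of 10 ZnT genes 8 were tested, of which 5 rose, 1 fell and 2 did not pass. Over all genes tested, 36.3% were called higher and 14.2% lower. With size factors the split was 3 higher and 3 lower for the ZIP genes and 4 higher and 1 lower for the ZnT genes. Of all 17126 genes, 4627 were then called higher and 4294 lower. Leaving out the 4 transporters already described, 3 of 9 ZIP genes (33.3%) and 5 of 7 ZnT genes (71.4%) were called, against 50.4% of all genes, with median log2 fold changes of 0.08 and 0.18.

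**Figure D4:**
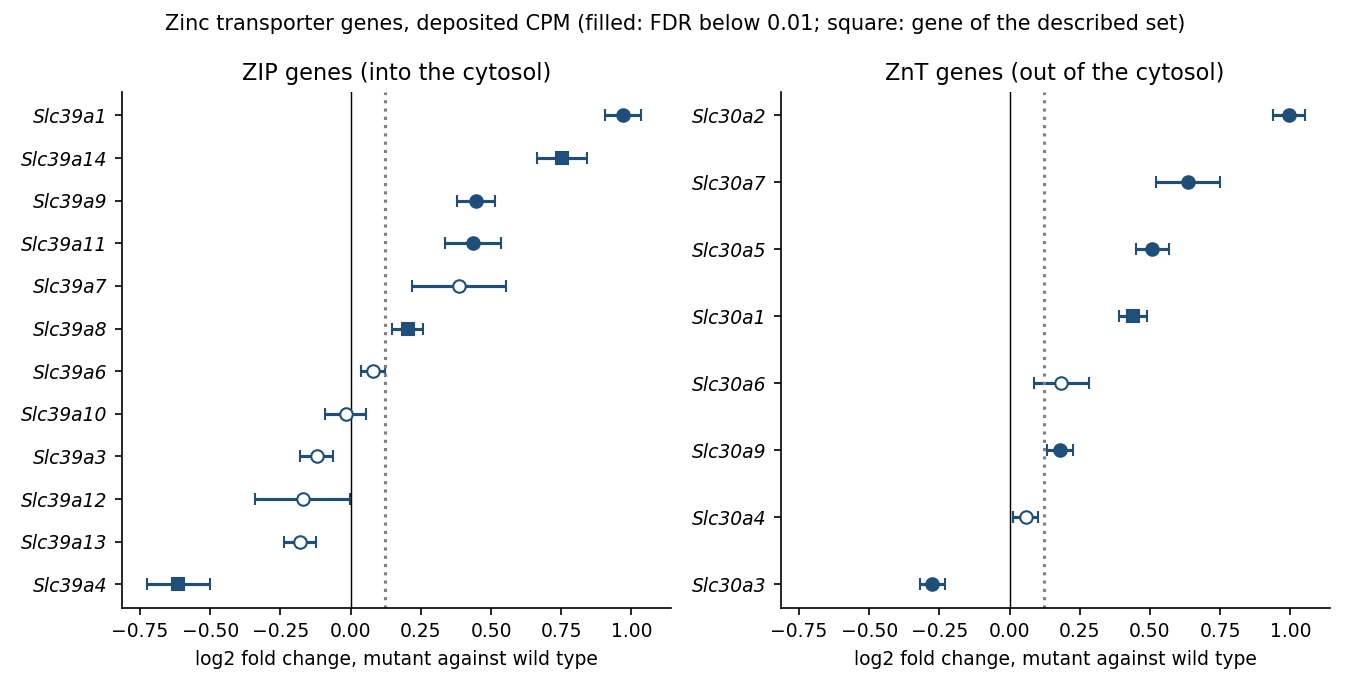
Log2 fold change of the ZIP genes (left) and ZnT genes (right), mutant against wild type, on the deposited CPM (horizontal axis, bars give the standard error); filled symbols have an FDR below 0.01, squares are Slc39a14, Slc39a8, Slc39a4 and Slc30a1, and the dotted line is the median of all tested genes, 0.12. Slc39a14 at 0.75 is second among the ZIP genes after Slc39a1 at 0.97, Slc39a4 at −0.61 is the lowest, and Slc30a1 at 0.44 comes after Slc30a2, Slc30a7 and Slc30a5 among the ZnT genes.

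Slc39a14 was not the only importer with a clear rise. Slc39a1, which encodes the plasma membrane importer ZIP1, rose from 22.8 ± 1.54 to 44.8 ± 1.45 CPM (log2 fold change 0.97 ± 0.06, limma FDR 7.1e-08). Slc39a9 rose by 0.45 ± 0.07 (FDR 9.0e-05), and its product ZIP9 has also been described as a membrane androgen receptor. Slc39a11 rose by 0.44 ± 0.10 (FDR 0.00201), a call that was lost with size factors (0.30, FDR 0.0160) and without mutant 2 (0.35, FDR 0.0136). The most abundant ZIP transcript per length in wild type was Slc39a6, at 23.6 CPM per kb, above Slc39a8. Its log2 fold change was 0.08 with the deposited scaling (FDR 0.120) and −0.05 with size factors, and neither passed.

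Among the other exporters the largest rise was that of Slc30a2, which encodes ZnT2, a carrier that loads zinc into vesicles. It rose from 40.9 ± 2.63 to 81.6 ± 1.52 CPM (log2 fold change 1.00 ± 0.06, limma FDR 2.2e-08), more than Slc30a1. Slc30a7 and Slc30a5, whose products supply zinc to the early secretory pathway, rose by 0.64 ± 0.11 (FDR 3.5e-04) and 0.51 ± 0.06 (FDR 1.0e-05) on the log2 scale. Slc30a3, known for filling synaptic vesicles with zinc in neurons, was the most abundant ZnT transcript at 77.4 CPM per kb and fell from 174 ± 7.02 to 144 ± 2.63 CPM (log2 fold change −0.27 ± 0.04, FDR 1.2e-04).

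Apart from Mt1 and Slc30a1, a list of 6 genes known to depend on MTF1 was examined. The list was not split by the direction in which MTF1 acts on each gene. It includes Slc39a10, also counted among the ZIP genes, at −0.02 (limma FDR 0.849). Of the 6 genes, 3 rose, 0 fell and 3 did not pass (against 50.4% of all genes called, 36.3% higher), with a median log2 fold change of 0.30. With size factors the split was 2 higher and 1 lower, the latter being Selenow at −0.19 (limma FDR 0.00179), and 52.1% of all genes were called. Ndrg1, a stress-responsive gene, rose from 11.6 to 28.2 CPM (log2 fold change 1.29 ± 0.08, limma FDR 6.0e-08). Pgf, which encodes placental growth factor, rose by 0.78 ± 0.17 (FDR 0.00163) and Csrp1, which encodes a LIM-domain protein of smooth muscle, by 0.39 ± 0.11 (FDR 0.00608). Neither call was firm: without mutant 2 Pgf was at 0.64 (FDR 0.0123) and Csrp1 at 0.37 (FDR 0.0243), which left 1 called gene of the list, and with size factors Csrp1 was at 0.26 (FDR 0.0532). Csrp1 was also not called without wild type 2 (0.40), wild type 3 (0.33) or mutant 1 (0.28). Mt1 and Mtf1 lay below the median of all genes, 0.12, and Slc30a1 lay above it. Within the list, Selenow at −0.06 and Slc39a10 lay below that median, and Gclc at 0.21, Csrp1, Pgf and Ndrg1 lay above it.

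Metallothioneins also bind copper and are induced by glucocorticoids, and both groups of genes were examined beside Mt1. Of 10 copper handling genes 5 rose, 0 fell and 5 did not pass, against 50.4% of all genes called and 36.3% called higher, with a median log2 fold change of 0.31. With size factors 5 were higher and 1 lower, the latter being Commd1 at −0.24 (limma FDR 0.00387). Of all 17126 genes, 4627 were then called higher and 4294 lower. The largest rises were those of Slc31a2 at 0.90 ± 0.09 (limma FDR 2.2e-06), Atp7a, the copper-exporting ATPase, at 0.76 ± 0.12 (FDR 9.4e-05), Sco1, which delivers copper to cytochrome oxidase, at 0.73 ± 0.11 (FDR 9.5e-05), and Slc31a1, the main copper importer, at 0.59 ± 0.06 (FDR 2.6e-06). Of 9 glucocorticoid-responsive genes 6 rose, 0 fell and 3 did not pass, with a median of 0.80. The share called was 66.7%, against 50.4% of all genes called and 36.3% called higher. With size factors 5 were higher and 0 lower. The call lost was that of Zbtb16 (limma FDR 0.0122), whose groups overlapped. Fkbp5, a co-chaperone of steroid receptors, rose from 50.3 to 101 CPM (log2 fold change 1.01 ± 0.05, FDR 6.9e-09). Cebpd, Ddit4 and Sgk1 rose by 1.37, 0.98 and 0.91 on the log2 scale.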

How the data were processed

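Libraries were made from whole testis RNA with the TruSeq kit and sequenced with paired ends. Per the labels and methods, the authors used Trimmomatic for trimming, Subread for mapping to GRCm39 and featureCounts for gene counts, and deposited CPM, so that each library sums to 1000000 with no further between-library factor found in the values. The strand setting is not given in the sources used here. All values (100%) were whole multiples of 1 step per library (tolerance 0.001), and reads per library were obtained from that step. A value of 0 allows up to 3 reads, for counting error only.

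Genes reaching 2.2 CPM in 2 libraries of either group were tested on log2(CPM + 0.1) with limma 3.58.1 (trend) in R 4.3.3, with Benjamini-Hochberg adjustment over 17126 genes. The script was tested on simulated data in which few or no genes changed, so that test did not bear on the choice of scaling. Fold changes on this scale understate the change of low genes. Each library is 1 mouse. Ratios were formed within a library. A permutation test of them was run, but its p-values are not given, since the ratios were chosen after their values were seen. Coordinates came from GENCODE M39, in which 17045 of 17127 genes (99.5%) were found. CPM was divided by the length of the canonical transcript to compare genes. Other steps used Python 3.11.15, NumPy 2.4.6, pandas 2.3.3, SciPy 1.17.1 and matplotlib 3.10.9.

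The genes and lists (ZIP and ZnT transporters, MTF1-dependent, copper handling, glucocorticoid response, and markers of Leydig, Sertoli, macrophage, endothelial, peritubular myoid, germ, blood and epididymal cells) were chosen with earlier results of these data known. Named genes were the 7 analysed of the set, the called genes with the 4 largest changes of each pathway list, the most abundant ZIP and ZnT genes, and the 5 genes most like Mt1. Mt2 and Mt4 were not analysed here, so a planned ratio of Mt2 to Mt1 was not made. Alternatives were a pseudocount of 1 or 0.01, no minimum or 5 CPM, size factors or TMM factors (unweighted), the replicate number as a block, and each library left out in turn.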

Additional observations from a re-analysis of the deposited data

Results flagged for a closer look

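The genes checked were Iqch and the named genes defined under the data processing, 32 in all. Of these, 3 had 1 wild-type library that stood apart from the other 3 by Dixon's criterion, which chance meets in about 1 in 20 groups. Slc39a1 was at 25.1 CPM in wild type 4, against 21.8 to 22.3 CPM in the others, and all 3 mutants lay above that library too. Fkbp5 was at 47.6 CPM in wild type 2, against 50.9 to 51.5 CPM. Fbxw5 was at 358 CPM in wild type 3, against 385 to 388 CPM. Mt1 was also lowest among wild type in that library, a likeness for which Fbxw5 was chosen. None of the 7 metallothionein and zinc handling genes met the criterion in wild type. Among the mutants, Mt3 was at 3.46 CPM in mutant 2, against 1.52 and 1.32 CPM in mutants 1 and 4.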

How the results depend on the processing

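The calls of Slc30a1, Slc39a14 and Slc39a4 held in all 14 alternatives. The scaling changed several calls: Mt1 was at −0.20 with size factors and −0.22 with TMM factors and Mtf1 at −0.27 and −0.28, all called, whereas Slc39a8 was at 0.069 and 0.054, not called. Slc39a6 changed sign, to −0.055 and −0.069, without passing the threshold. With TMM factors the median of all genes was −0.03 and 49.8% of calls were higher. With 1 library left out, Mt3 lay between −1.15 (without mutant 2) and −0.49, Slc39a8 between 0.18 and 0.24, and between 1 (without mutant 2) and 4 genes of the MTF1-dependent list were called. Between 7237 and 8503 genes were called in all when 1 library was left out. The replicate block gave 7705 calls, against 8275 in the same 6 libraries without it, and Slc39a8 at 0.20 (limma FDR 0.0200), not called; Csrp1 was lost as well. Deviations of same-numbered libraries correlated at 0.026, 0.0094 and −0.098 across genes, so no deviation shared by number was seen. Whether the numbers pair the mice in some other way cannot be told from these values. Of 353 other values, 332 kept their call, 11 lost it, 8 gained it and 2 changed sign. With a minimum of 5 CPM, Mt3 was not tested. Count-based tests listed as alternatives were not run. The causes of these changes were not tested.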

Other observations

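Over all tested genes 36.3% were called higher and 14.2% lower. Among germ cell markers, 4 of 7 spermatogonial genes rose (summed CPM 141 to 153 in wild type and 196 to 220 in the mutants), and 2 of 7 spermatocyte genes fell and 0 rose (1210 to 1242 and 1098 to 1155). With size factors 1 spermatogonial gene was called higher and 5 spermatocyte genes lower, and 4627 of all 17126 genes were called higher and 4294 lower. Among the others, 2 of 6 endothelial genes rose (36.5 to 40.8 and 50.3 to 52.6), and of 5 peritubular myoid genes 1 rose and 1 fell (346 to 419 and 286 to 326). With size factors 1 endothelial gene, Vwf, was also called lower, at −0.35 (limma FDR 0.000561). Of 4 blood genes, 0 passed an FDR of 0.01 in limma and 3 had an unadjusted p below 0.05, with summed CPM of 31.9 to 47.0 and 36.4 to 49.4. These 3 went in different directions, with log2 fold changes of −0.40 for Hba-a1, 0.52 for Hba-a2 and 0.19 for Alas2. Of 6 epididymal genes only Rnase10 was analysed, and it rose (1.77 to 2.18 and 2.98 to 4.51 CPM). The part of these shifts in the values of the zinc genes was not tested.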
